A study of Homo sapiens with 4 samples.

Results

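The regions described here were intergenic stretches of open chromatin that carried an ATAC-seq peak in both DMSO libraries of human pancreatic progenitors (PPs) and in neither I-BET151 library. Peaks of the 4 lists were merged wherever they overlapped by at least 1 bp, and a merged region was kept when its highest-fold summit lay outside every protein-coding gene body, more than 3 kb from every protein-coding gene start and more than 1 Mb from a chromosome end. The regions were therefore chosen by measured values, namely the presence of a peak in each list, so their loss is a definition and is described without a test. In all, 1862 regions met the rule, out of 164301 merged regions and 71879 intergenic ones. A loss was called in 2.37% of all merged regions and in 2.59% of the intergenic ones. Among the 33120 regions with a peak in both DMSO lists, 11.8% were lost.

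The PPs came from MEL1, an established human embryonic stem cell line given in the study's methods as MEL1 INS GFP/W, with a GFP reporter in the insulin gene. They were kept in the expansion medium EF6, which held EGF at 50 ng/ml, bFGF at 10 ng/ml and the TGF-β receptor inhibitor 616452 at 10 μM. To this medium, shared by all libraries, either DMSO or I-BET151 at 1 μM was added for 7 days, with 2 libraries per condition and 50000 cells per library. The labels do not say whether the libraries came from separate cultures, so the spread between them may be technical. All 4 libraries came from 1 cell line.

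ATAC-seq marks DNA that the Tn5 transposase can reach. Such DNA, when it lies away from genes, often holds enhancers, at which transcription factors bind and displace nucleosomes. I-BET151 blocks the bromodomains of the BET proteins, which bind acetylated histones at enhancers and promoters and help RNA polymerase II into elongation. In pancreatic progenitors, enhancers are known to be bound by factors such as PDX1, FOXA2, GATA6 and ONECUT1. A peak list says only where reads piled up past a threshold, and in bulk cells a region open in fewer cells and a region less open in each cell cannot be told apart.

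The lists held between 38295 and 111324 peaks. The number of reads behind each list, estimated from its genome-wide background, was 38.7 and 36.6 M in the DMSO libraries and 12.5 and 16 M in the I-BET151 libraries, so depth moved with the treatment. Peaks lay within 3 kb of the start of 7, 6, 8 and 8 of 8 pancreatic progenitor genes (DMSO replicates 1 and 2, then I-BET151 replicates 1 and 2), and of 2, 0, 2 and 1 of 7 genes that mark other cell types.

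The DNA under these regions is shown first for 3 of the 4 with the highest fold enrichment in the weaker DMSO library, because they carried the most DMSO signal. Each sequence is the summit with 100 bases on each side, from the hg38 plus strand, named by the nearest protein-coding gene, with the middle 21 bases in capitals.
PLGLB2, chr2:87397570-87397770: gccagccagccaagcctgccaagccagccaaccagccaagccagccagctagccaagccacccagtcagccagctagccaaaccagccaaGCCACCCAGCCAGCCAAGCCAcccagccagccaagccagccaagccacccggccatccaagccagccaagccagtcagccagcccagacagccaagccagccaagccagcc
OR11H1, chr22:11037763-11037963: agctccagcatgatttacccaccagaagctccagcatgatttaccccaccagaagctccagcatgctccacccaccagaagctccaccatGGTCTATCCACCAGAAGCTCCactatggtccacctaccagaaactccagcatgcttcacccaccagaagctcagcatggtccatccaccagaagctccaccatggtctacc
FAM72B, chr1:124420918-124421118: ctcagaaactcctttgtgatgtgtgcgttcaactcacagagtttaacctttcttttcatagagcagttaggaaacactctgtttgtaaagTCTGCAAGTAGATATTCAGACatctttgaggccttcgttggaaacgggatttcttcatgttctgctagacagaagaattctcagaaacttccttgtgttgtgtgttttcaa
In the windows near PLGLB2 and OR11H1, a stretch of 12 bases occurred at least 2 times within the window itself. In the windows near PLGLB2, OR11H1 and FAM72B, a 48-base stretch was found in 16, 2 and 3617 places of the genome, counting its own.

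The typical member looked different. The next 2 windows belong to members without a copy whose lower −log10 p was closest to the middle of all members (chosen after the values were seen), again with the middle 21 bases in capitals.
RALGAPA2, chr20:20806141-20806341: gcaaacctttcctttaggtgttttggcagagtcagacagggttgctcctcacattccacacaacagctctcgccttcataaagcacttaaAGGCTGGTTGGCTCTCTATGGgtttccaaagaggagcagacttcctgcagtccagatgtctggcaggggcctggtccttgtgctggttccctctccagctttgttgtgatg
C16orf82, chr16:26602831-26603031: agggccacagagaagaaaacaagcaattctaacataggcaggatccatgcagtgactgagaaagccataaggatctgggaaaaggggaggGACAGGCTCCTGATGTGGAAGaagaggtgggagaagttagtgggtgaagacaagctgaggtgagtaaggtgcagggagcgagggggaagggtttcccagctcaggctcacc
Neither window held a repeated stretch of 12 bases, and both were found in 1 place.

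The last set shows the strongest members with each of the 3 motifs that were most frequent relative to retained intergenic regions, with the motif in capitals. The motifs were NF-kB, the E-box CAGATG of NEUROG and NEUROD, and the RBPJ motif GTGGGAA.
MILR1, chr17:64443290-64443490: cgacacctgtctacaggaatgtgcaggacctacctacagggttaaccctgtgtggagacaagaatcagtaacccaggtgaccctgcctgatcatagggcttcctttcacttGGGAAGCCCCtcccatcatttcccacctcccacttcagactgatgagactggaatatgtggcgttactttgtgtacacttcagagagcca
OR11H1, chr22:12693814-12694014: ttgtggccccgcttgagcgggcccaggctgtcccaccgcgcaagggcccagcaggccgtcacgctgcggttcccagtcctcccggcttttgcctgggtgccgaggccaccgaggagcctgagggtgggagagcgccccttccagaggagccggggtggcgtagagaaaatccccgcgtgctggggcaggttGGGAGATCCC
GET1, chr21:39370604-39370804: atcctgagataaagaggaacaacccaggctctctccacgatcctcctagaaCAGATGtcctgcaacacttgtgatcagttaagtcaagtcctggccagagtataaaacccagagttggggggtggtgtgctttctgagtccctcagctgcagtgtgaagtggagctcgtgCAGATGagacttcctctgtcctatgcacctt
ZIM2, chr19:56942860-56943060: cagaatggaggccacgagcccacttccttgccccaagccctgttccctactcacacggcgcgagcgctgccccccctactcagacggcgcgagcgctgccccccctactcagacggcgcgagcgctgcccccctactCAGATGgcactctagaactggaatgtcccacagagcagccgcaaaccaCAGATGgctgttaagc
GOLGA6L6, chr15:20272900-20273100: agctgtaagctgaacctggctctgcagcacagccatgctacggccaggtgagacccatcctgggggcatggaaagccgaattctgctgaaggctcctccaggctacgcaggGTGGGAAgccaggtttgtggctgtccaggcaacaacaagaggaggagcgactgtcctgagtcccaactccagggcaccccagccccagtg
The window near MILR1 was also the second strongest with the RBPJ motif, which it held as TTCCCAC on the plus strand. The letters of NF-kB and RBPJ overlap in part, since both can contain GGGAA.

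The members were weaker peaks than the intergenic regions called in all 4 lists, but average ones within DMSO replicate 1. Over all peaks, median fold was 3.88 in DMSO replicate 1 and 4.08 in DMSO replicate 2. Fold enrichment, the read pileup at the summit over the local background, had a median of 3.88 in DMSO replicate 1, with the middle 80% of members between 3.12 and 4.92. In DMSO replicate 2 the median was 3.37, with the middle 80% between 2.86 and 4.19. The 7762 intergenic regions called in all 4 lists (retained) had medians of 5.06 and 4.42. Both distributions overlapped broadly, with members reaching from 2.29 to 11.2 and retained regions from 2.25 to 23.7 in DMSO replicate 1.

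In reads, the summit of a member carried a median pileup of 17 in DMSO replicate 1 and 15 in DMSO replicate 2, against 25 and 22 at retained regions. The lowest pileup of any member was 11 reads in either library, close to the smallest pileup that was called in these lists (10 and 11 reads). The local background was similar, with medians of 3.43 and 3.6 reads at members and 3.84 and 4.10 reads at retained regions. A count of 15 to 17 reads has a wide counting error of its own, which the peak lists do not show.

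Within each DMSO list, the median member stood at percentile 49.9 of fold in replicate 1 and at percentile 25.1 in replicate 2. Retained regions stood at 79.8 and 59.6. The percentile was higher in replicate 1 for 1553 members (83.4%) and for 6749 retained regions (86.9%), so the gap between the DMSO lists was common to both sets. Across members, log2 fold in the DMSO libraries correlated with a Pearson r of 0.594 (n = 1862), against 0.804 across retained regions (n = 7762). These points share 2 libraries and a detection threshold, and the correlations are descriptions.

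**Figure D1:**
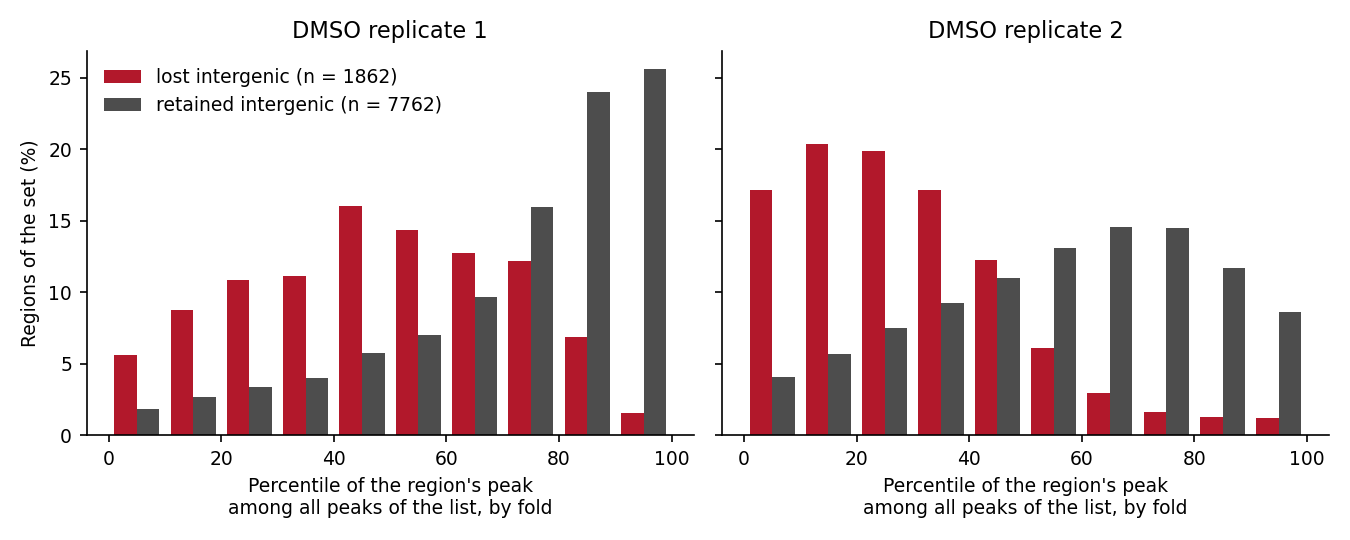
Share of lost (red) and retained (grey) intergenic regions in each step of 10 percentile points of fold within DMSO replicate 1 (left) and DMSO replicate 2 (right). The median lost region lies at 49.9 and 25.1, the median retained region at 79.8 and 59.6.

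Of the members, 548 (29.4%) had a −log10 p under 5 in at least 1 DMSO list, against 352 retained regions (4.53%). Only 70 members (3.76%) reached a −log10 p of 10 in both DMSO lists, against 3471 retained regions (44.7%). The weakest members by −log10 q illustrate the lower end. Near PKHD1, the fibrocystin gene of duct and kidney epithelium, the region chr6:52117222-52117648 had folds of 2.93 and 2.51 from 13 and 12 reads. Near HRH2, a histamine receptor gene, chr5:175626711-175627154 had folds of 3.16 and 2.45 from 16 and 13 reads.

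Of the 11184 intergenic regions with a peak in both DMSO lists, 1862 were lost (16.6%, 95% Wilson interval 16 to 17.4), 7762 were retained and 1560 had a peak in 1 I-BET151 list. The share of losses was 14.4% in protein-coding gene bodies (1734 regions) and 2.40% within 3 kb of a start (233 regions). Near chromosome ends it was 36.6% of 183 intergenic regions (30.0 to 43.8). Intervals here and below cover counting error over regions and not the spread between libraries. The rule asks for agreement of all lists, so leaving any list out makes it looser. Without a DMSO library, the share is over regions with a peak in the remaining DMSO list. The share changed with the library that was left out. It was 49.4% without DMSO replicate 2 (15970 regions), 30.7% without I-BET151 replicate 2 (3444 regions), 22.7% without DMSO replicate 1 (3012 regions) and 17.5% without I-BET151 replicate 1 (1954 regions).

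The share of losses fell with DMSO strength at every step. It was 50.2% where the lower DMSO −log10 p was under 5, 38.4% between 5 and 6, 23.9% between 6 and 7, 12.4% between 7 and 8 and 4.61% between 8 and 10. From 10 to 15 it was 2.26%, and at 15 or more it was 1.23% (18 of 1463 regions). Gene-body regions followed a similar course up to 10, from 48.6% to 4.79%. At 15 or more, 7 of 1789 gene-body regions were lost (0.391%, 0.190 to 0.805) and 0 of 4472 promoter-near regions (0 to 0.0858), against 1.23% (0.780 to 1.94) between genes.

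Depth was compared with these values directly. If the pileup of each member were scaled down by the ratio of the genome-wide backgrounds (0.322 for the replicate 1 libraries, 0.480 for the replicate 2 libraries), the median member would carry 5.48 reads at the depth of I-BET151 replicate 1 and 7.2 reads at that of replicate 2. The smallest pileups called in those lists were 5 and 6 reads, which 68.5% and 90.8% of members would reach. Libraries were paired here by replicate number alone, which no source says reflects a shared preparation, and the crossed pairs were not computed. The lowest pileup is the most lenient limit, and percentile 1 of the called pileups was 6 and 7 reads, so the median member would fall short of it in replicate 1. Scaled in the same way, retained regions would carry medians of 8.05 and 10.6 reads, and they were observed with 20 and 45 reads, a median of 1.37 and 2.06 higher on the log2 scale. The 352 retained regions with a lower DMSO −log10 p under 5 had median pileups of 17 and 15 in the DMSO lists, and of 13 and 26 in those of I-BET151. Retained regions were chosen for having I-BET151 peaks, so their pileups there do not show what depth alone would leave of the members. The part that depth had in the losses was not tested beyond these values.

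Most members lay apart from I-BET151 peaks. The nearest I-BET151 peak of either list was a median of 7.00 kb away, and 677 members (36.4%) had none within 10 kb. In 230 members (12.4%), however, an I-BET151 peak lay within 1000 bp, and in 52 within 200 bp. The nearest retained region of any location was a median of 35.6 kb away. Members were narrower than retained regions, with a median width of 426 bp (middle 80%, 319 to 667 bp) against 715 bp. The 12806 intergenic regions called in both I-BET151 lists and no DMSO list (gained) had a median of 480 bp. All intergenic regions had a median of 386 bp, below that of members. Retained regions merge peaks of 4 lists and members peaks of 2, which widens the retained regions by construction.

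Members were rich in G and C. The sequence within 100 bp of the summit had a median GC of 53.7% (95% interval 53.2 to 54.2), against 47.8% (47.3 to 48.3) at retained and 44.3% (43.8 to 44.3) at gained intergenic regions. At least 50% GC was found in 1312 members (70.5%), 40.7% of retained and 24.2% of gained regions. CpG dinucleotides did not follow. Both lost and retained regions had a median of 2 per window, and the ratio of observed to expected CpG was 0.147 at members and 0.213 at retained regions. Lost regions within genes had a median GC of 54.7%, close to the intergenic members.

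The excess of GC reached beyond the peak. At about 1000 bp on either side of the summit, the flanks of members had a median GC of 46.4%, those of retained regions 42.3% and those of gained regions 39.8%. From flank to summit, GC rose by a median of 6.72 percentage points at members, 5.97 at retained and 4.73 at gained regions. The lists as a whole differed too. Intergenic regions with a peak in DMSO replicate 1 had a median GC of 49.8%, those of DMSO replicate 2 48.3%, and those of I-BET151 replicates 1 and 2 45.3% and 44.8%. Whether this came with the libraries or with the treatment cannot be told apart with 2 libraries per condition.

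The share of losses rose with GC from 3.41% under 40% GC to 33.8% (31.4 to 36.3) between 55 and 60%, and was 18.7% at 60% or more. Within each level of DMSO strength the share also rose over wider classes of GC. The highest class took all regions at 55% or more, so the lower share at 60% or more was not examined there. With a lower DMSO −log10 p under 6, 18.3% of regions under 45% GC were lost, 48.5% of those between 45 and 55% and 53.0% of those at 55% or more. Between 6 and 10 the shares were 3.76%, 14.8% and 20.6%, and at 10 or more they were 0.658%, 1.78% and 4.03%. In all 7 bands of DMSO strength the median GC was higher at members than at retained regions. With equal numbers of peaks per list the median was 51.7%, against 47.8% for the regions then retained.

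The same relation appeared between chromosomes. The share of losses was 29.6% on chromosome 19 (64 of 216 regions) and 28.3% on chromosome 22, the autosomes with the highest GC (47.9% and 47.0%). On chromosome 4, the autosome with the lowest GC (38.2%), the share was 10.4%. It was 15.1% on chromosome 13, which has the next lowest GC (38.6%), and the lowest autosomal share, 9.65%, was on chromosome 6 (39.6% GC). The sex chromosomes were left out of the correlation. Over the 22 autosomes the Pearson r of lost share with GC was 0.908 and Spearman's rho 0.878. Without chromosomes 19 and 22 they were 0.860 and 0.838 (n = 20). All points share the same 4 libraries, so the correlation is a description.

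The strongest members differed from the rest in sequence. Of the 70 with a −log10 p of at least 10 in both DMSO lists, 21 (30.0%) held a 48-base stretch that occurs elsewhere in the genome and 40 (57.1%) held a 12-base stretch repeated within the window. Either was true of 47 (67.1%), against 256 of 3471 retained regions of the same strength (7.38%). Among the 1792 weaker members the share was 9.04%, and among the 4291 weaker retained regions 5.01%. The repeat within the window was looked for after the sequences above had been seen. Of the strongest 70, 13 lay more than 1 Mb from a protein-coding start (18.6%), against 3.17% of the retained regions of that strength. Reads from repeated DNA can be placed at several positions by an aligner, so the position of these peaks is uncertain.

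Ranked by the lower of the DMSO folds, the highest region had CRYAA, a lens crystallin gene, as its nearest gene. It had folds of 11.2 and 11.1 from 53 and 60 reads, percentiles 99.7 and 99.0 of the DMSO lists. The next, 350 kb upstream of the plasminogen-like gene PLGLB2, had folds of 8.08 and 9.19 from 36 and 48 reads and a GC of 67.2%. The third, 4490 kb upstream of the olfactory receptor gene OR11H1, had folds of 8.28 and 7.94 from 31 and 32 reads. It was also the member farthest from any protein-coding start. The DMSO libraries differed little at these 3 regions.

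At 2 members upstream of FAM72B on chromosome 1 the DMSO libraries differed more, with folds of 7.24 and 12 at the first and 6.98 and 13 at the second. Stretches of their windows occurred in 3617 and 5285 places. The other 5 of the 10 highest members lay near AQP7B, OTULIN, DEFB115, GOLGA6L6 and ROCK1, with lower folds between 6.21 and 6.73. Of these 10 members, 6 had a copy elsewhere and 5 lay more than 1 Mb from a start. Of the 100 highest, 25 had a copy, and of the 1000 lowest, 13. Over all 1862 members it was 57 (3.06%), against 0.992% of retained and 0.609% of gained regions. Leaving these out gave 1805 members and a share of losses of 16.4%.

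Without a copy, the 10 highest members included regions near CROCC, POTEB3, TPTE, TMEM121, SULF2 and COQ2 besides those near CRYAA, AQP7B, DEFB115 and GOLGA6L6 (this selection was added after the values were seen). The windows near CRYAA, AQP7B, DEFB115, TPTE, TMEM121 and SULF2 still held a 12-base stretch repeated within the window. Near SULF2, which encodes an enzyme that trims heparan sulfate, chr20:47894773-47896046 had folds of 5.95 and 7.45. Near COQ2, an enzyme gene of coenzyme Q synthesis, chr4:83237591-83238017 had folds of 7.14 and 5.77 and lay inside a lncRNA gene. Near CROCC, the gene of the ciliary rootlet protein, chr1:16718669-16719184 had folds of 7.24 and 6.01 and lay inside the pseudogene ESPNP.

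Weak members lay closer to genes than other intergenic regions did, and the strongest lay farther away. Over all members, the median distance to the nearest protein-coding start was 49.3 kb (46.1 to 54.6), against 71.0 kb for retained, 122 kb for gained and 98.2 kb for all intergenic regions. Within 50 kb of a start were 935 members (50.2%), 41.1% of retained and 30.0% of gained regions. The 70 members with a −log10 p of at least 10 in both DMSO lists lay a median of 135 kb from a start, against 76.1 kb for retained regions of that strength, while the weaker members and retained regions lay at 48.2 and 67.1 kb. Without DMSO replicate 1 the medians of lost and retained regions came closer, at 66.3 and 71.7 kb, and without DMSO replicate 2 at 69.4 and 76.0 kb. More than 500 kb away were 124 members (6.66%), 9.82% of retained and 16.8% of gained regions. The body of a long noncoding RNA (lncRNA) gene held 461 members (24.8%), against 30.5% of both retained and gained regions. Within 3 kb of a lncRNA start were 103 members (5.53%, 4.58 to 6.66) and 10.7% of retained regions (10.1 to 11.5). Outside every annotated gene of any type and more than 3 kb from its start, 1234 members were left.

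The rule was a sharp line through a continuous range. The members nearest to a start lay 3.08 kb upstream of OR1K1 (folds 4.65 and 3.93) and 3.20 kb upstream of PRSS33 (3.08 and 3.05). Just inside 3 kb, and so left out, were lost regions 2.95 kb upstream of TMPRSS11F (6.21 and 3.85) and 3.00 kb upstream of GSDMD (3.87 and 4.44). On the side of I-BET151, the regions closest to being members had 1 weak peak in I-BET151 replicate 2, with a −log10 q of 1.32 from 6 reads. They lay upstream of POTEB2 (DMSO folds 4.06 and 5.29) and of SERF1B (3.88 and 8.66).

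Motifs were searched as exact letters on both strands within 100 bp of the summit, N standing for any base, in members and in retained and gained intergenic regions. The summit was that of the highest-fold peak in any list. At members this was always a DMSO peak. At retained regions it could be an I-BET151 peak, where folds were higher (medians 7.71 and 10.0, against 5.06 and 4.42 in DMSO). What this added to the differences below was not tested. Of 25 motifs, 17 were less frequent at members than at retained regions, 12 of them with 95% intervals that lay apart, and 8 were more frequent, 2 with intervals apart. With the letters of each motif reversed, 15 of 25 were less frequent at members, so the count alone says little about the motifs. A match is a run of letters and not a bound site.

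The AP-1 motif TGANTCA, bound by FOS and JUN dimers, was found in 105 members (5.64%, 4.68 to 6.78), against 16.3% of retained, 11% of gained and 12% of all intergenic regions. With its letters reversed, which keeps the base composition, the motif was found in 5.16% of members and 5.91% of retained regions. The GATA motif AGATAA was found in 135 members (7.25%), 17.3% of retained, 19.1% of gained and 15.9% of all intergenic regions. The FOXA motif TGTTTAC, of the pioneer factors that open foregut enhancers, was found in 2.26%, 6.63% and 5.97% of lost, retained and gained regions. The letters reversed gave 2.47% of members and 4.73% of retained regions for FOXA, and 6.28% and 9.20% for GATA, so a smaller gap in the same direction was there without the motifs.

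Other motifs of pancreatic and hepatic factors were rare as well. ONECUT (TATNGAT) was present at 2.85% of members and 7.29% of retained regions, HNF1 (GTTAATNAT) at 0.215% and 2.65%, and HNF4 (CAAAGTCCA) at 0.269% and 1.51%. The homeodomain core TAATTA, which PDX1 and NKX6-1 can bind, was present at 1.66% and 5.67%. Its reversed letters gave 1.72% and 5.42%, so for this motif the gap was the same without the motif. SOX (AACAATG) was present at 1.83% and 4.26%. Reversed letters gave 3.11% and 5.04% for ONECUT, 0.161% and 0.515% for HNF1, and 1.40% and 2.13% for SOX. These were smaller gaps in the same direction. For HNF4 they gave 0.269% and 0.180%, the other direction. The motif of CTCF, which holds the bases of chromatin loops, was found in 7 members (0.376%), 4.10% of retained and 4.30% of gained regions. At least 1 of 8 of these motifs (AP-1, GATA, FOXA, SOX, ONECUT, HNF1, HNF4 and CTCF, chosen after their shares were seen) was held by 353 members (19.0%), 46.7% of retained and 46.1% of gained regions. This pooled share was not computed with reversed letters.

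These differences were compared within bands. AP-1, FOXA, ONECUT, HNF1 and CTCF were each less frequent at members than at retained regions in all 7 bands of DMSO strength and in all 6 bands of GC. Only 4 members held HNF1 and 7 held CTCF, so several bands had no member with these motifs. The strongest band had 18 members. GATA was less frequent in all 7 bands of strength and in 5 of 6 bands of GC. At a lower DMSO −log10 p under 5, AP-1 was found in 6.57% of 548 members and 12.2% of 352 retained regions, and between 50 and 55% GC in 5.51% and 17.0%.

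The shares at lost regions depended on I-BET151 replicate 2. Without it, AP-1 was found in 13.4% of lost and 17.9% of retained regions, GATA in 12% and 17.4%, FOXA in 3.83% and 6.98%, and CTCF in 0.697% and 4.82%. With equal numbers of peaks per list, where 671 of 1739 lost regions overlapped a member, AP-1 was found in 14.0% and 16.8%, GATA in 12.5% and 16.9%, FOXA in 4.37% and 6.59%, and CTCF in 1.61% and 4.10%. Among peaks with a −log10 p of at least 10, CTCF stood at 1.68% of 119 lost and 3.29% of retained regions. In a window of 250 bp, AP-1 was found in 13.7% of lost and 28.1% of retained regions, and GATA in 17.9% and 34.1%. FOXA was found there in 5.16% and 12.4%, and CTCF in 0.913% and 5.49%.

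The motifs that were more frequent at members were few. The E-box CAGATG, which NEUROG3 and NEUROD1 bind in endocrine precursors, was found in 337 members (18.1%), 13.8% of retained and 14.1% of gained regions. It was more frequent at members in all 6 bands of GC and in 4 of 7 bands of strength. Its reversed letters gave 5.10% and 4.15%. NF-kB, bound by the factors of inflammatory signaling, was found in 79 members (4.24%), 2.91% of retained and 2.09% of gained regions. Reversed, the same letters gave 5.37% and 3.79%, and within GC bands the share at members was higher in 3 of 6. RBPJ, the DNA-binding partner of Notch, stood at 6.07% and 4.74%, with overlapping intervals, and its reversed letters at 5.32% and 3.54%. KLF and SP (GGGCGG) was less frequent at members (4.30%) than at retained regions (11%), and its reversed letters gave 5.37% and 11.1%, nearly the same gap. TEAD (GGAATG), the partner of YAP, was found in 14.0% and 17.4%. The satellite motif CATTCCATT, which contains the TEAD letters on the other strand, was found in 1.02% of both.

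**Figure D2:**
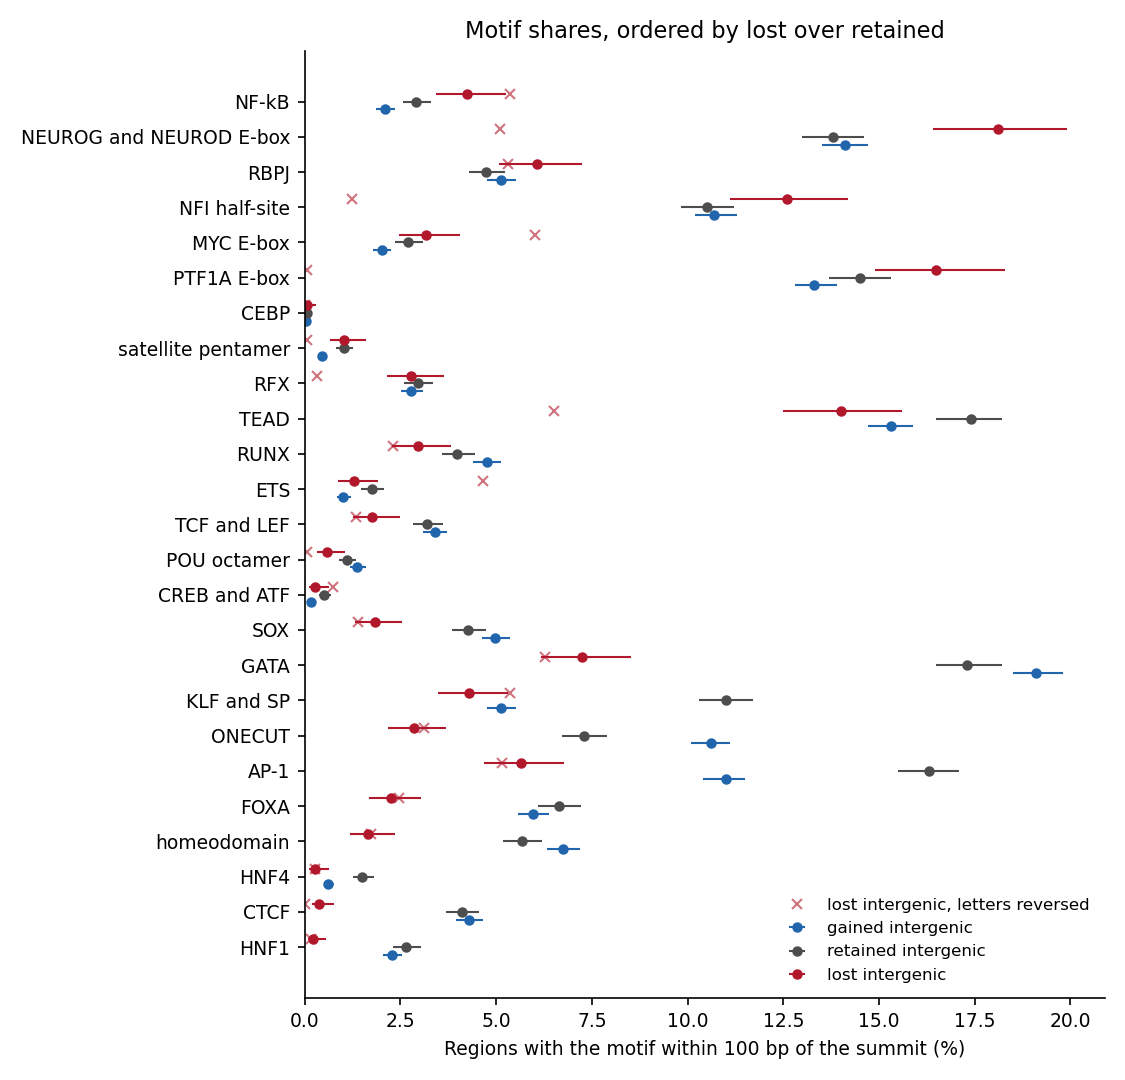
Percent of lost (red), retained (grey) and gained (blue) intergenic regions with each of 25 motifs within 100 bp of the summit, with 95% Wilson intervals, and the share of lost regions with the letters reversed (crosses). AP-1 stands at 5.64% of lost and 16.3% of retained regions, and the NEUROG and NEUROD E-box at 18.1% and 13.8%.

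Members were scattered. Linking members within 50 kb of each other left 1417 (76.1%) alone and put 445 into 206 groups, of which 26 had at least 3 members. The largest group, of 6 members over 41.0 kb at chr7:5574774-5615760, lay next to ACTB, the β-actin gene, and FSCN1, which encodes the actin-bundling protein fascin. Its median GC was 63.7% and the lower DMSO folds ran from 2.86 to 3.8. Next came 5 members near TMEM121 at chr14:105563095-105606140 with folds from 2.64 to 5.95. A group of 4 near PLGLB2 at chr2:87396590-87430204 included 3 members with a copy elsewhere, as did the tied group of 4 near RPIA at chr2:91498416-91528758.

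At least 1 member was nearest to 1480 of 20033 protein-coding genes (7.39%), and 1208 of these genes had 1 member only. The genes with the most members were TPTE with 9, TMEM121 and TSPY10 with 8 each, RPIA with 7, AJAP1 and GOLGA6L6 with 6 each, and AUTS2 and ENSG00000289710 with 5 each. FSCN1 and HS6ST1 also had 5. Of the 9 members nearest to TPTE, a testis-expressed gene on the short arm of chromosome 21, 6 had a copy elsewhere, and their distances ran from 89.2 to 3956 kb. Of the 7 nearest to RPIA, an enzyme gene of the pentose phosphate pathway, 5 had a copy. Those nearest to AUTS2, a gene of neural development, had a median GC of 47.3% and none had a copy. Nearest says only which start is closest, not which gene a region acts on.

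By lists of genes, members lay nearest to 9 of 20 pancreatic progenitor factors (45%), against 7.39% of all protein-coding genes. The same list had gained regions at 15 of 20 genes (75%), against 23.5% of all genes. It had retained regions at 15 of 20, against 4044 of all 20033 genes. Any intergenic region lay nearest to 18 of 20, against 9710 of 20033, so the list was high in every class. Each of the lists below also had a larger share of genes with any intergenic region than all protein-coding genes had. The list was not compared with genes of similar surroundings. NR5A2, a nuclear receptor gene of the exocrine pancreas, had 3 lost, 6 retained and 9 gained regions. Its nearest lost region, 65.1 kb upstream at chr1:199962246-199962640, had folds of 3.47 and 3.43. GATA6, required for pancreas formation, had 2 lost, 8 retained and 7 gained regions, with folds of 3.49 and 2.83 at the nearest lost one. ONECUT1, also called HNF6, had 2 lost and 9 gained regions. The lost region 22.3 kb upstream of it, chr15:52813204-52813590, had folds of 6.73 and 4.81 from 25 and 19 reads and a GC of 41.3%, the highest folds among the list members named here. FOXA2 had 1 lost region, 144 kb upstream, with folds of 3.63 and 3.08, and 16 gained ones.

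Endocrine lineage genes had the fewest, with 1 of 20 (5.00%, near the 7.39% of all genes), which was SST, the somatostatin gene, with a region 32.1 kb downstream (folds 4.04 and 2.79). Of the Notch pathway genes 3 of 20 were nearest to a member (15%). HEY1, a Notch target gene, had 2 lost regions, the nearer one 9.72 kb downstream with folds of 3.97 and 3.32. HES1, another target, and JAG1, a ligand, had 1 each, 110 and 121 kb upstream. HEY1 also had 4 retained and 5 gained regions, HES1 7 and 5, and JAG1 4 and 8.

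Acute inflammatory genes had members at 5 of 18 (27.8%, against 7.39% of all genes), as many genes as had gained regions. NFKBIA, which encodes the inhibitor of NF-kB, had 2, the nearer one downstream at chr14:35384549-35384963 with folds of 4.49 and 4.05. SOCS3, a feedback inhibitor of cytokine signaling, had 2, with folds of 3.09 and 2.86 at the nearer one. CXCL1, a chemokine gene, had 1 with folds of 4.92 and 3.85, and IL1A 1 with 3.47 and 4.25. AP-1 and immediate early genes had members at 3 of 16 (18.8%). These were IER2 and MYC with 2 each and JUN with 1. MYC had 7 retained and 15 gained regions besides, and its nearest lost region lay 165 kb downstream.

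Liver and gut genes had members at 6 of 18 (33.3%, against 7.39% of all genes), and gained regions at 5. SOX2 counts among these 6 and again among the pluripotency genes. CEBPA, a hepatic and adipocyte factor gene, had 1 lost region 8.69 kb upstream at chr19:33311084-33311551 with folds of 5.23 and 3.57. CEBPB had 1 at 11.3 kb (4.05 and 3.49), KRT20 1 at 19.5 kb (4.66 and 3.58) and SERPINA1, the α1-antitrypsin gene, 1 at 20.9 kb (3.97 and 3.40). Mesenchymal and matrix genes had members at 4 of 20 (20%, against 7.39% of all genes), and gained regions at 16. They were TNC with 2 and COL1A1, SNAI2 and ZEB2 with 1 each, and ZEB2 had 19 gained regions. The lost region of ZEB2 lay 1610 kb upstream of its start.

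TGF-β and YAP response genes had members at 2 of 18 (11.1%), among them TEAD1 (folds 2.99 and 3.20). Pluripotency genes had them at 2 of 12 (16.7%), SALL4 with 2 and SOX2 with 1. Neural and neural crest genes had them at 2 of 16 (12.5%), SOX1 and SOX11. In every list but that of liver and gut genes and that of inflammatory genes, more genes had gained than lost regions, as over all protein-coding genes (23.5% and 7.39%), where gained regions outnumbered lost ones 12806 to 1862. Over the 10 lists, 36 genes were nearest to a member. The number was 97 without DMSO replicate 2 and 59 without I-BET151 replicate 2.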

How the data were processed

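ATAC-seq peak lists of 4 libraries, 2 per condition, were analysed, and conditions came from the sample labels. The authors used Bowtie2 (v2.2.5) to align to hg38, discarded duplicated and mitochondrial reads, and ran MACS2 (v2.1.2) on each library without a control. The deposited lists give per peak a fold enrichment (a ratio of summit pileup to local background), −log10 of the p-value and q-value, and a display score that was not used. The authors' methods state a threshold of p = 1e-05, whereas the deposited lists reach down to a −log10 q between 1.30 and 1.33. Peak widths began at 200 bp in each replicate 1 list but at 233 bp (DMSO) and 256 bp (I-BET151) in replicate 2, so whether all lists were called with the same settings is not known.

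From these, the pileup in reads was solved for each peak from its fold and p-value (99.94% to 100.0% of peaks), and depth was estimated from the lowest background with a genome size of 2700000000. Genes came from GENCODE release 44 and sequence from hg38, which is the build of the lists. GC, CpG and motifs were read within 100 bp of the highest-fold summit, and a copy means that 1 of 4 48-base stretches of this window occurs elsewhere in the genome on either strand. Code in Python 3.11.15 (numpy 2.4.6, scipy 1.17.1, pandas 2.3.3, pysam 0.24.0) was tested on simulated data. Shares have 95% Wilson intervals and medians 95% order-statistic intervals.

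The regions, gene lists and motifs were chosen with earlier results of these data known, and no test was run on what the choice fixes. Regions and genes were named by rule. The rule took the 10 members with the highest lower DMSO fold, the 8 genes nearest to most members, up to 4 genes per list, the 3 largest groups, sequences of the 4 highest members (1 of them, like 1 list gene, is not reported here) and of 2 per motif for 3 motifs, and the extremes of −log10 q and distance. FSCN1, HS6ST1, the strongest members without a copy and the members of middle strength were named after their values were seen.

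Alternatives were stricter thresholds, equal numbers of peaks, a 50% overlap, single libraries or pairs, near misses, other location rules, other windows and reversed motif letters. Leaving out regions with a copy was chosen after seeing the data.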

Additional observations from a re-analysis of the deposited data

How the results depend on the processing

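The lists limit these results by depth, with 36.6 to 38.7 M reads estimated in the DMSO and 12.5 to 16 M in the I-BET151 libraries. Leaving out each library in turn gave 1954 to 15970 lost regions. These were 17.5% to 49.4% of intergenic regions with a peak in every DMSO list that was kept. The median lower fold was 3.37 to 3.6, the median GC 50.7% to 53.7% and the median distance 51.2 to 69.4 kb. Inside lncRNA genes lay 22.9% to 27%, and 37 to 97 list genes were nearest to a lost region. The replicate 1 pair alone gave 21348 regions (64.8%), 50.7% GC, 70.8 kb, 27.2% in lncRNA genes and 112 list genes, and the replicate 2 pair 3135 regions (23.6%), 50.7%, 67.9 kb and 22.7%. At a −log10 p of at least 10 there were 119 regions (3.16%), a fold of 5.19, 52.2% GC, 152 kb (77.3 kb for retained regions, the reverse of the order over all members), 16.8% in lncRNA genes and 1 list gene, and at 5 the share was 13.6%. Equal numbers of peaks gave 21.1%, a fold of 3.78, 51.7% GC and 62.0 kb. Outside every annotated gene there were 1234 regions (17.7%), 44.7 kb, 0% in lncRNA genes by construction and 21 list genes. The share was 14.6% without members within 1000 bp of an I-BET151 peak and 26.4% with an overlap of 50% of the region. The distance was 61.8 kb beyond 10 kb of starts, and GC was 52.8% over whole regions. In every setting run, GC was higher at lost than at retained regions. In the settings that kept the motif letters, 17 to 21 of 25 motifs were less frequent at lost regions. With the letters reversed it was 15 of 25. The cause of these changes was not tested. Soft-masked bases were not counted, because the reference sequence used here is all in capitals. No paired analysis was possible because no value here comes from a test and no source says that libraries of the same number were made together.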
